A study of Mus musculus with 9 samples.

Results

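The chromatin around 8 solute carrier genes was examined: the choline transporter Slc44a1 and its relative Slc44a2, the sulfate transporter Slc13a1, the neutral amino acid transporters Slc38a1, Slc38a2 and Slc38a4, the leucine and large neutral amino acid exchanger Slc7a5, and the glutamine exchanger Slc1a5. The members were the peaks whose centre lay in a gene body (mm10) or within 100 kb of either end. There were 243 such peaks of 146734 in the deposited table, and all 243 passed the filter on low values (a mean of at least 10). By gene, the windows held 41 peaks for Slc38a1, 30 for Slc38a2, 32 for Slc38a4, 33 for Slc44a1, 39 for Slc44a2, 7 for Slc13a1, 49 for Slc7a5 and 34 for Slc1a5. Slc38a1 and Slc38a2 are neighbours on chromosome 15, and 22 peaks lay in both windows. The genes were chosen because peaks near them stood out in shMed4 against NTC, so every difference of a member from NTC below is a description. Where such a peak is called higher or lower, the call sorts the peaks and is no evidence for the choice of the genes. The difference between the hairpins is taken as no part of that choice and was tested. This is an assumption, because the genes were chosen with earlier results of these data known.

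Accessibility had been measured by ATAC-seq, in which a transposase cuts and tags open DNA, in the murine breast carcinoma line D2A1-d. There were 9 libraries: 3 of cells with a non-targeting control (NTC; genotype label WT), 3 with the hairpin shMed4 #1 and 3 with the hairpin shMed4 #4 (genotype label Med4 Knockdown). Cells of all 3 groups had been transduced, and all carry the treatment label Untreated. The labels call the 3 libraries of a group biological replicates and do not say whether they came from separate cultures, so that the errors measure the spread between these libraries. Med4 encodes a subunit of Mediator, through which enhancer-bound transcription factors reach RNA polymerase II. Choline is taken up for the synthesis of phosphatidylcholine, sulfate for sulfated sugars and hormones, and glutamine and leucine for protein synthesis, nitrogen supply and the control of mTORC1. Slc38a2 and Slc7a5 are known targets of ATF4, the transcription factor of the amino acid starvation response. Accessible sites at gene starts mark promoters, and those inside or between genes are often enhancers.

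Between 44753019 and 98898174 reads fell in peaks in each library, and the middle peak of a library held 110 to 247 reads. Libraries of one group differed by more than sampling noise (chi-square per degree of freedom 1.99 to 2.92) and by less than libraries of different groups (9.96 to 29.06). The peak at the start of Med4 (chromosome 14, 73509724 to 73510225) had 544 ± 24.2 normalised reads in NTC, 451 ± 23.5 with shMed4 #1 and 469 ± 21.4 with shMed4 #4 (SD, n = 3). A hairpin acts on the transcript, which was not measured, so this peak does not check the knockdown. Of 13 epithelial markers, 3 had a peak at the gene start or end (Krt18, Esrp2 and Elf3), whereas Krt8, Krt14, Krt5, Epcam and Cdh1 had none. Krt18 had 164 ± 5.60 normalised reads in NTC, 368 ± 18.1 with #1 and 465 ± 39.1 with #4 and was called higher (log2 fold 1.33, SE 0.08), while Esrp2, with 555 ± 12.4, 340.0 ± 29.6 and 426 ± 68.1, was called lower (-0.55, SE 0.08). Elf3 made up most of the sum, at 2392 ± 8.63, 2632 ± 91.5 and 2589 ± 188 (SD, n = 3). The summed level of the 3 was 3099 to 3121 normalised reads over the NTC libraries, 3264 to 3486 with #1 and 3178 to 3654 with #4. For the fibroblast list 2 of 6 genes had such a peak (Pdgfrb and Col1a1), with sums of 2536 to 2648, 2308 to 2408 and 2292 to 2531 in the same order. Of the leukocyte markers, Ptprc had no such peak, Lyz2 had 279.5 ± 24.1, 182 ± 33.1 and 163 ± 45.9 normalised reads, and Csf1r 607 ± 28.9, 638 ± 19.6 and 473 ± 13.4 (SD, n = 3). In the endothelial list, Cdh5 was the 1 of 4 with a peak, at 231 to 250.3, 413 to 472 and 268 to 303. The part of these markers in the results was not tested.

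Values per peak are normalised reads, that is, read counts divided by the authors' scaling factor of the library. A site open in fewer cells and a site less open in every cell cannot be told apart in such bulk libraries. Folds are log2 ratios of (value + 1) with their standard error (SE) from a limma fit over all 9 libraries and 146729 peaks. A peak is called higher or lower where the Benjamini-Hochberg adjusted p over all peaks is under 0.05. Unless a hairpin is named, folds and calls against NTC are those of the mean of the 2 hairpins. Peaks are numbered within each gene's window by position.

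The promoters themselves are shown first, because the peaks covering them had folds against NTC between -0.14 and 0.02. The 250 bases before the first listed start are printed for the 3 members whose window lies inside a peak, from RefSeq (GRCm38.p6), 5′ to 3′ on the strand of the gene. Capitals mark the GC box GGGCGG on either strand, the motif of SP1-type factors. The Slc44a1 promoter is on the plus strand (chr4:53440163-53440412), that of Slc38a2 on the minus strand (chr15:96699729-96699978), and that of Slc44a2 on the plus strand (chr9:21320469-21320718).
Slc44a1: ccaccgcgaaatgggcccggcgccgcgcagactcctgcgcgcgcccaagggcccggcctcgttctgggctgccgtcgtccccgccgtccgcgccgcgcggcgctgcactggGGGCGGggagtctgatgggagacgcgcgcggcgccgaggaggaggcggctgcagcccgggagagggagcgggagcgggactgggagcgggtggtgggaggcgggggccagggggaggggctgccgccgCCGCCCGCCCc
Slc38a2: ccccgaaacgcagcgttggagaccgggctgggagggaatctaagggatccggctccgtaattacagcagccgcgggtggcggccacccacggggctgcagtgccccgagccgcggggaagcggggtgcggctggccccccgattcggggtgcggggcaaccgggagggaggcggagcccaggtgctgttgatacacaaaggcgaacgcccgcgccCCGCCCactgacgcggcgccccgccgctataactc
Slc44a2: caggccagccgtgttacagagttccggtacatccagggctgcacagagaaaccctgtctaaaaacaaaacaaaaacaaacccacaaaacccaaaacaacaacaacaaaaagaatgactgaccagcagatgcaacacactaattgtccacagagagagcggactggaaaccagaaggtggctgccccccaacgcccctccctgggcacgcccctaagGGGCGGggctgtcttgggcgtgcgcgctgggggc
The G and C share was 81.2% in the Slc44a1 window, 72.0% in that of Slc38a2 and 55.6% in that of Slc44a2. The Slc44a1 window held 3 matches to the GC box, of which those nearest the start overlap, and the other two windows held 1 each. A match stood in 33.0% of all 27025 listed promoters of the same length. No match was found on either strand to the NF-Y motif CCAAT, which stood in 34.5% of all promoters, or to the TATA box TATAAA, which stood in 13.0%. Nor was there a match to the E-box CACGTG (6.04% of all promoters) or to TGATGNAA, the core of the ATF4 amino acid response element (3.53%). The motif of AP-1, TGANTCA, was likewise not matched (6.85%). Only these 250 bases were searched, so a site elsewhere in or near a gene would not be found. In the table of starts, 4 of the 8 members were matched: these 3 and Slc38a4.

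Peaks at the gene starts were among the more accessible of the windows, with a median NTC level of 780.2 normalised reads against 161 over all members. Within 1 kb of a listed start, or of either gene end where none is listed, 9 peaks were found at 5 members. Their folds against NTC ran from -0.39 to 0.11 with a median of 0.02. None was called higher and 1, the weaker of 2 at Slc38a2, was called lower. Over all protein-coding genes, 10.7% of 11064 start or end peaks were higher and 44.9% lower, with a median of -0.11. That set holds only the strongest peak of each gene, so it is not fully alike and would leave out the Slc38a2 peak called lower. The sign of the members' median depended on the scaling: it was 0.10 (1 higher, 0 lower) with values centred on peaks at gene ends and -0.08 (0 higher, 3 lower) centred on all other peaks. It also turned with single libraries, to -0.04 without NTC replicate 2 and -0.01 without #4 replicate 2, and the call was lost without NTC replicate 1 or #1 replicate 1 (0 lower). Slc38a1, Slc38a4 and Slc13a1 had no such start or end peak.

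At the Slc44a1 start (peak 12, chromosome 4, 53439975 to 53440476) the NTC libraries had 1090.4, 1118 and 1232 normalised reads, those with #1 1108, 1188 and 1305, and those with #4 831, 1108 and 1113. The groups overlapped, and 1 library of #4 was the lowest of the 9. The fold against NTC was -0.06 (SE 0.07); with #4 alone it was -0.18 (SE 0.08) and called lower, and with #1 alone 0.06 (SE 0.08) and not called. Slc38a2 had its strongest start peak (peak 16, chromosome 15, 96698555 to 96699056) at 935, 855 and 901 in NTC, 873, 892 and 919 with #1, and 856, 813 and 910.2 with #4. All 3 groups overlapped there, with a fold of -0.03 (SE 0.05). Its second start peak (peak 17), over the promoter printed above, had 780.2 ± 26.0, 664 ± 35.6 and 755 ± 80.6 (SD, n = 3) and a fold of -0.14 (SE 0.06). It is the start peak called lower, as it was with #1 alone (-0.23, SE 0.07), and with #4 alone it was not called (-0.05, SE 0.07).

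For Slc44a2 the start peak (peak 15, chromosome 9, 21320469 to 21320970) had 567, 535 and 668 normalised reads in NTC, 599, 562 and 572 with #1, and 573, 668 and 614 with #4. Those ranges overlapped, and the fold was 0.02 (SE 0.07). Slc7a5, the light chain that pairs with Slc3a2 to exchange glutamine for leucine, had its strongest end peak at the upper-coordinate end (peak 25, chromosome 8, 121907627 to 121908128). It was at 1499.6, 1619 and 1577 in NTC, 1727, 1693 and 1678 with #1, and 1405, 1487 and 1626 with #4. The #1 libraries were the 3 highest, while NTC and #4 overlapped; the mean fold was 0.03 (SE 0.05). Slc1a5, which brings glutamine into the cell, had its strongest end peak at the lower-coordinate end (peak 13, chromosome 7, 16781011 to 16781512). Its values were 989.5, 1171 and 1051 in NTC, 1032, 1103 and 1128 with #1, and 1021, 1097 and 1171 with #4. The 3 groups covered one another, with a fold of 0.03 (SE 0.06).

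Away from the starts the picture differed from gene to gene. Of the 243 peaks, 102 were called higher by the mean of the hairpins, 20 were called lower and 121 were not called. Called with each hairpin on its own were 78 higher and 9 lower, beside 25886 and 19743 of all 146729 tested peaks. Over all tested peaks 54.1% were called, 27.9% higher and 26.2% lower; among the members 42.0% were higher and 8.23% lower. With #1 alone 99 members were higher and 26 lower (52.7% of all peaks called), and with #4 alone 100 and 22 (50.4%). As the genes were chosen on this contrast, nothing is read from these shares. The members' median fold was 0.15, against -0.02 over all peaks. A rise of at least 2-fold was seen at 36 members (14.8%, beside 5.97% of all peaks) and a fall of that size at 1 (0.960% of all peaks). Of the 36, 28 had an NTC mean under 100 (32.2% of 87 such members, beside 13.4% of all such peaks). At an NTC mean of at least 100 the rise was seen at 8 of 156 members (5.13%, beside 2.79%). In 78 members the lowest of the 6 shMed4 libraries lay above the highest NTC library, and in 15 the highest lay below the lowest (19.0% and 16.5% of all peaks).

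By gene, 7 of 7 peaks were higher around Slc13a1 (median fold 3.17), 19 of 33 around Slc44a1 (0.36), 20 of 41 around Slc38a1 (0.26), 14 of 30 around Slc38a2 (0.23), 27 of 49 around Slc7a5 (0.22), 11 of 32 around Slc38a4 (0.15), 8 of 34 around Slc1a5 (0.05) and 7 of 39 around Slc44a2 (-0.02). The numbers called lower were 0, 2, 3, 2, 1, 3, 3 and 8 in the same order. Peaks inside a gene were called higher in 7 of 7 cases in Slc38a1, 10 of 15 in Slc44a1, 2 of 2 in Slc13a1, 3 of 7 in Slc38a4 and 3 of 6 in Slc7a5. With values centred on peaks away from gene ends the Slc1a5 median was -0.05, and centred on peaks at gene ends the Slc44a2 median was 0.06. Inside Slc38a2, Slc44a2 and Slc1a5 none of 3, 7 and 5 was. For 108 of the 243 peaks the nearest protein-coding gene was not a member. Of the peaks nearest to each gene, 7 of 7 were higher for Slc13a1, 17 of 30 for Slc44a1, 15 of 17 for Slc38a1 and 7 of 23 for Slc38a2. The counts were 6 of 11 for Slc7a5, 11 of 31 for Slc38a4, 0 of 8 for Slc1a5 and 0 of 8 for Slc44a2.

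**Figure D1:**
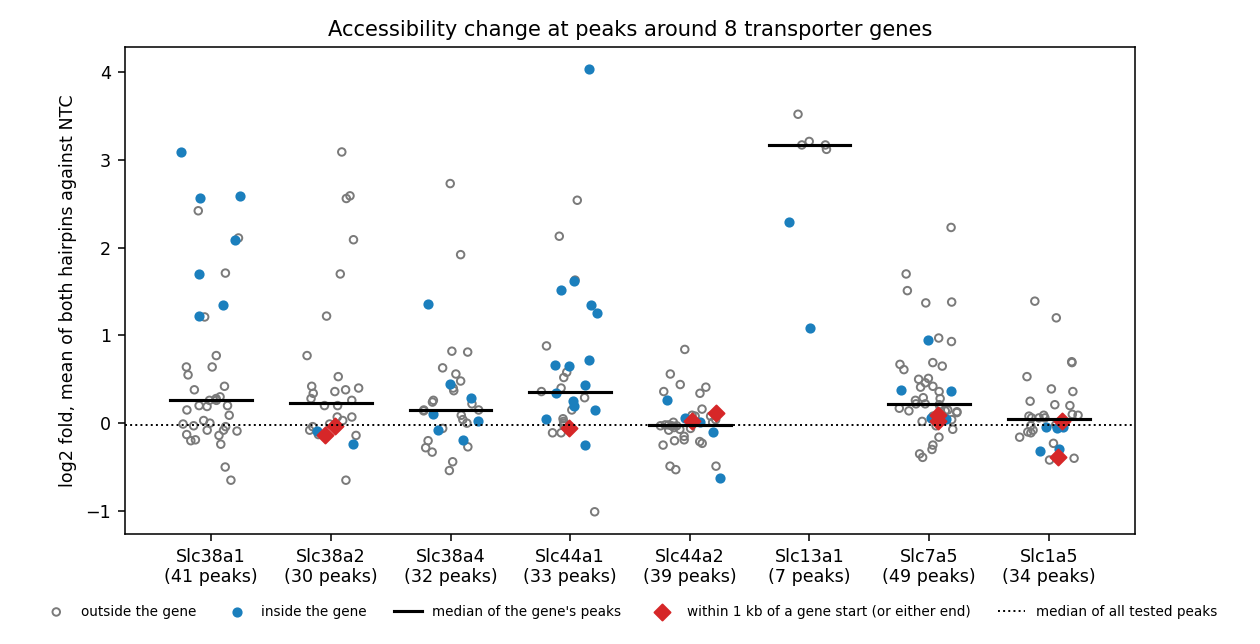
Each point is a peak in the window of a gene (horizontal axis, with the number of peaks); the vertical axis is its log2 fold of both hairpins against NTC. Filled circles lie inside the gene and open ones outside. Diamonds lie within 1 kb of a listed start, or of either end where no start is listed. Black bars are medians (3.17 for Slc13a1, 0.36 for Slc44a1) and the dotted line is the median of all tested peaks, -0.02.

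The fold that stood furthest from NTC among the members was inside Slc44a1, which encodes the plasma membrane choline transporter CTL1. Peak 22 (chromosome 4, 53539401 to 53539902) lies 99.3 kb downstream of the 5′ end. The NTC libraries had 54.1, 33.9 and 36.8 normalised reads, those with #1 826, 827 and 809, and those with #4 591, 576 and 519. Every shMed4 library was above every NTC library, and the #1 libraries were above the #4 libraries. In NTC this level was at the 4.04th percentile of all peaks. The log2 fold was 4.30 (SE 0.12) with #1 and 3.75 (SE 0.12) with #4.

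Peak 22 stood within a run of 8 neighbouring peaks (18 to 25) that were all called higher with each hairpin, over 54.5 kb of the gene body, with folds from 0.43 to 4.03. Peak 19, 75.7 kb from the 5′ end, had 189.7 ± 27.3 normalised reads in NTC, 558 ± 33.5 with #1 and 420.0 ± 22.5 with #4. Peak 25, at 117.7 kb, had 161 ± 14.6, 516 ± 37.9 and 415 ± 32.2 (SD, n = 3). Nearer the start, peak 16 at 16.4 kb was also higher, with 55.1 ± 11.2, 211 ± 11.9 and 137 ± 18.8. Peak 13 at 6.0 kb, the most accessible inside the gene, stood at 2720.3 ± 7.90, 3065 ± 106 and 2597 ± 75.2, a fold of 0.05 (SE 0.04). It was called higher with #1 alone (0.17, SE 0.05) and not with #4 (-0.07, SE 0.05).

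A second group of higher peaks stood just past the 3′ end of Slc44a1. Peak 29 (chromosome 4, 53624133 to 53624634), 1.91 kb beyond the gene, was at 83.9, 99.6 and 86.7 normalised reads in NTC, 703, 707 and 722 with #1, and 405, 407 and 367 with #4. The 3 groups were apart, with #1 highest. The mean fold was 2.54 (SE 0.08). Its neighbours, peaks 28 and 30, had folds of 2.13 (SE 0.18) and 1.63 (SE 0.18). The member with the furthest fall was on the other side: peak 8 (chromosome 4, 53415877 to 53416378), 24.3 kb upstream, had 111, 84.2 and 94.9 in NTC, 40.0, 53.5 and 42.9 with #1, and 50.2, 42.2 and 58.2 with #4. The shMed4 libraries were all below NTC and overlapped each other, with a fold of -1.01 (SE 0.19).

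**Figure D2:**
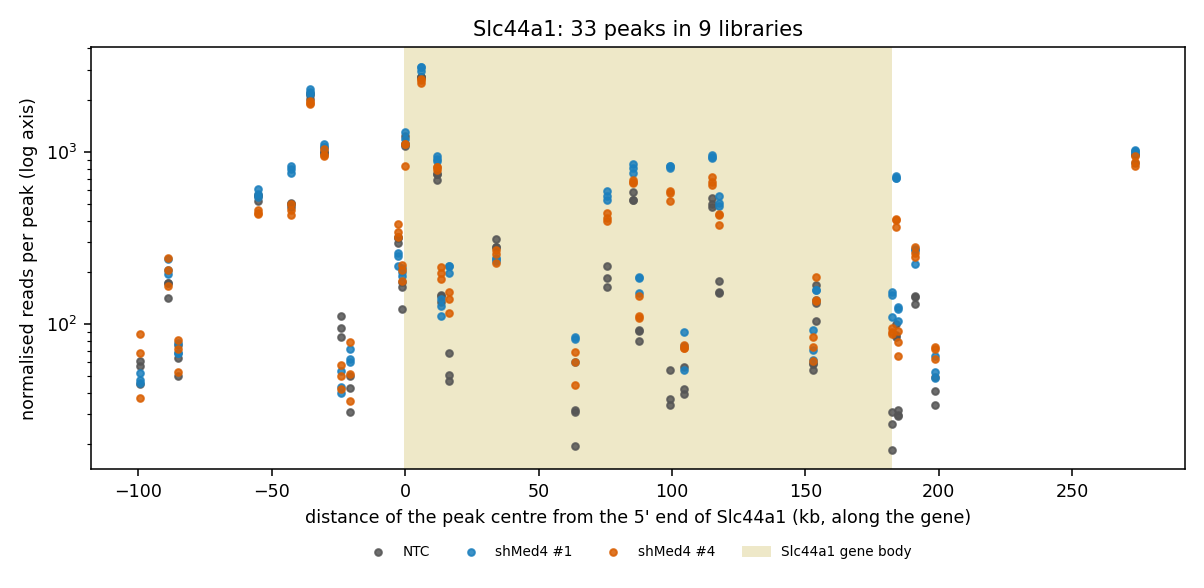
Normalised reads (vertical log axis) of each of the 9 libraries at the 33 peaks around Slc44a1, by distance of the peak centre from the 5′ end of the gene in kb; the shaded band is the gene body. At 99.3 kb the NTC libraries lie between 33.9 and 54.1 and the shMed4 libraries between 519 and 827, while at the start the 3 groups overlap.

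Slc38a1, which encodes the sodium-coupled glutamine and alanine transporter SNAT1, was higher at all 7 peaks inside the gene. These 7 peaks had folds from 1.22 to 3.09 with a median of 2.09. Peak 21 (chromosome 15, 96617427 to 96617928; 46.3 kb from the lower-coordinate end) had 99.3, 105 and 115 normalised reads in NTC, 775, 834 and 876 with #1, and 1045, 999 and 972 with #4. All groups were apart, with #4 highest. The log2 fold was 2.95 (SE 0.08) with #1 and 3.23 (SE 0.08) with #4. Peak 25, at 66.9 kb, had 195 ± 25.6, 944 ± 44.0 and 728 ± 49.7, and peak 19, at 4.5 kb, had 378 ± 36.6, 935 ± 12.4 and 1002 ± 99.3 (SD, n = 3).

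Those 7 peaks and the next 2 made a run of 9 called higher with each hairpin over 90.7 kb. A further cluster lay 22.8 to 24.0 kb below the gene, where peaks 15, 16 and 17 had folds of 1.71 (SE 0.15), 2.11 (SE 0.14) and 2.42 (SE 0.10). The most accessible of them, peak 17, had 65.2 ± 8.46 normalised reads in NTC, 366 ± 18.7 with #1 and 337 ± 29.9 with #4. Further out, peak 9 (chromosome 15, 96514635 to 96515136) was at 106, 113 and 127 in NTC, 56.8, 62.5 and 59.4 with #1, and 111, 119 and 101 with #4. Only the #1 libraries were low there, and #4 overlapped NTC.

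Slc38a2 encodes SNAT2, the carrier whose uptake of neutral amino acids rises when they are scarce. The high peaks in its window are those of Slc38a1 shared by both windows, and none of the 3 peaks inside Slc38a2 was called (folds from -0.24 to -0.03). Counting only the 23 peaks for which Slc38a2 is the nearest gene, 7 were higher, with a highest fold of 0.53. The lowest fold of both windows was at peak 22 (chromosome 15, 96743151 to 96743652), 43.7 kb upstream of the Slc38a2 start. It had 295, 289 and 282 normalised reads in NTC, 188, 185 and 201 with #1, and 176, 165 and 187 with #4. Both hairpins were below NTC and overlapped one another, with a fold of -0.65 (SE 0.09). At peak 28 (chromosome 15, 96770912 to 96771413), 71.4 kb upstream, the values were 48.4, 68.8 and 56.5 in NTC, 64.0, 54.4 and 48.4 with #1, and 119, 81.9 and 116 with #4. Only #4 stood above the other libraries.

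**Figure D3:**
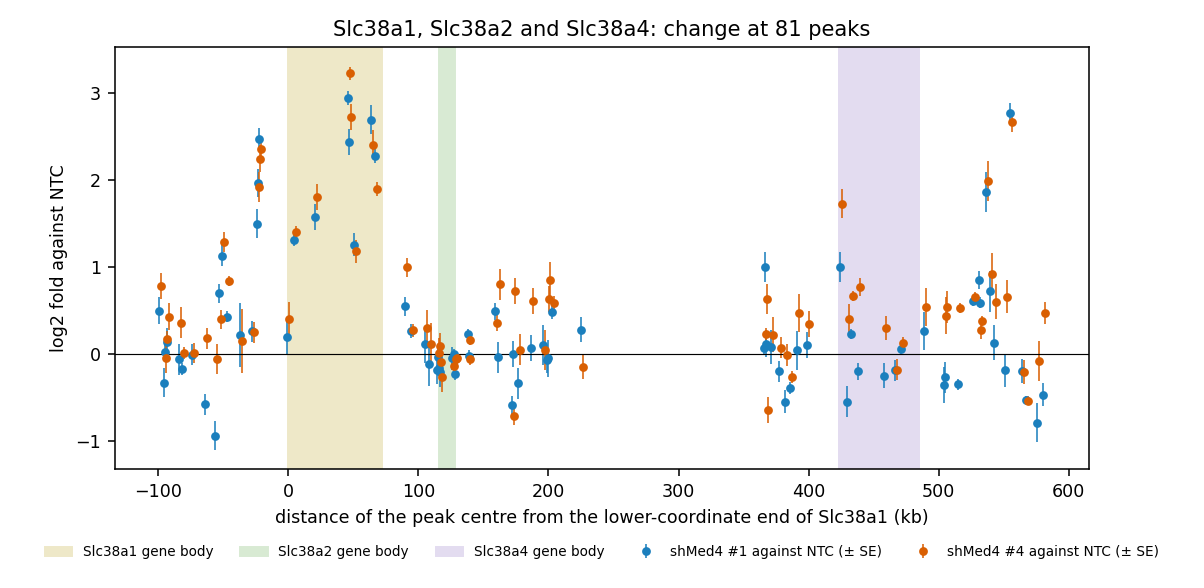
Log2 fold against NTC (vertical axis, bars ± SE) of shMed4 #1 and shMed4 #4 at the 81 peaks around Slc38a1, Slc38a2 and Slc38a4, by distance from the lower-coordinate end of Slc38a1 in kb (#4 drawn slightly to the right); shaded bands are gene bodies. The 7 peaks inside Slc38a1 have folds from 1.26 to 2.95 with #1 and from 1.18 to 3.23 with #4. Those inside Slc38a2 have folds from -0.21 to 0.00 with #1 and from -0.27 to -0.06 with #4.

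Slc38a4, a relative known from liver and placenta, had its highest fold upstream of the gene. Peak 28 (chromosome 15, 97126223 to 97126724), 70.5 kb upstream of the 5′ end, had 59.7, 58.5 and 54.0 normalised reads in NTC, 426, 392 and 385 with #1, and 379.7, 350.4 and 381 with #4. The shMed4 libraries were all above NTC; the fold was 2.73 (SE 0.09). Peak 24, at 51.9 kb upstream, was also higher, from 22.6 ± 4.69 to 84.0 ± 13.1 and 92.5 ± 16.0 (SD, n = 3). Near them, peak 30 (chromosome 15, 97138238 to 97138739), which was the most accessible of this window in NTC, went the other way. It had 2205, 2273 and 2216 in NTC, 1434, 1573 and 1631 with #1, and 1452, 1517 and 1633 with #4. Both hairpins lay below NTC and overlapped, with a fold of -0.54 (SE 0.05).

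Slc13a1, the sodium-sulfate cotransporter of kidney and intestine, stood in sparse chromatin: its window held 7 peaks with NTC means of 11.8 to 52.3 normalised reads. All were higher with each hairpin and none overlapped NTC. Among all tested peaks with an NTC mean under 100, 34.3% were called higher and 10.8% lower by the mean of the hairpins, and 13.4% rose at least 2-fold. Peak 1 (chromosome 6, 24047276 to 24047777), 40.8 kb below the lower-coordinate end, had 33.1, 39.0 and 36.8 in NTC, 279, 316 and 286 with #1, and 641, 636 and 580.3 with #4. The 3 groups were apart, with #4 highest. The log2 fold was 2.98 (SE 0.11) with #1 and 4.06 (SE 0.11) with #4, the furthest of any member with that hairpin. Peak 7 (chromosome 6, 24166691 to 24167192), 1.2 kb below the upper-coordinate end, had 41.2, 50.3 and 37.6 in NTC, 147, 151 and 142 with #1, and 317, 334 and 277 with #4. The order of the groups was the same, with a fold of both hairpins of 2.29 (SE 0.13).

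The remaining Slc13a1 peaks below the gene (2 to 5) had folds from 3.12 to 3.21, and peak 6 inside it 1.08 (SE 0.24). Chromatin further out was also higher: over the 93 peaks within 2 Mb of the gene and outside its window, 64.5% were called higher and 2.15% lower, with a median of 0.51. The median of chromosome 6 was 0.12. The same medians within 2 Mb were 0.18 for Slc7a5 (49.7% higher), 0.09 for Slc44a1 (34.8%), 0.05 for Slc38a1 (31.2%), 0.07 for Slc38a2 (31.6%), 0.03 for Slc38a4 (28.9%), -0.01 for Slc1a5 (22.0%) and -0.04 for Slc44a2 (20.4%). The part of the surroundings in the values of the genes was not tested.

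**Figure D4:**
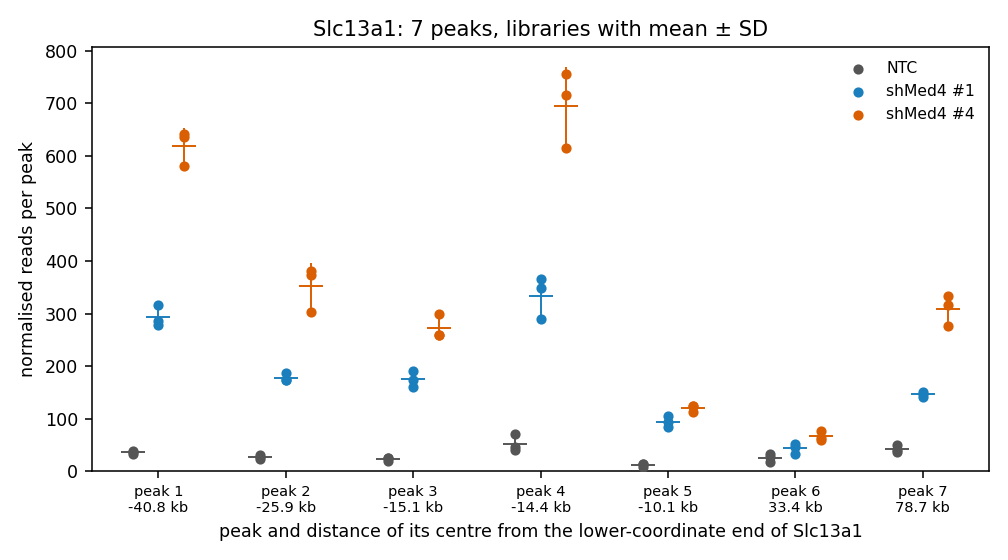
Normalised reads (vertical axis) at the 7 peaks around Slc13a1 in each library (points) with the mean and SD of each group (bars); the horizontal axis gives the peak and its distance from the lower-coordinate end of the gene in kb. At peak 1 the NTC libraries lie between 33.1 and 39.0, those with #1 between 279 and 316 and those with #4 between 580.3 and 641.

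Around Slc7a5, 27 of 49 peaks were called higher, but the furthest from NTC lay beyond the gene, nearest to Car5a. Peak 30 (chromosome 8, 121932283 to 121932784), 24.8 kb above the upper-coordinate end, had 53.3, 60.6 and 52.4 normalised reads in NTC, 307, 290.4 and 269.6 with #1, and 246, 220.0 and 254 with #4. The shMed4 libraries were all above NTC, with a fold of 2.23 (SE 0.11). The adjoining peak 31 had 369 ± 15.1, 1053 ± 42.0 and 879.7 ± 56.3 (SD, n = 3). Inside Slc7a5, the highest fold was at peak 20, which had 388 ± 24.2, 750.0 ± 32.0 and 747 ± 30.1, a fold of 0.95 (SE 0.06). Peak 6 (chromosome 8, 121818174 to 121818675), nearest to Klhdc4, was low in both: 119, 137 and 122 in NTC, 96.0, 94.9 and 111 with #1, and 90.8, 99.8 and 101 with #4, a fold of -0.35 (SE 0.13).

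Slc1a5 had no internal peak called higher, and its 5 internal peaks had folds from -0.32 to -0.04. The furthest rise in its window was at peak 32 (chromosome 7, 16880123 to 16880624), 82.1 kb above the gene and nearest to Dact3. Its values were 79.1, 84.2 and 109 in NTC, 245, 246 and 298 with #1, and 227, 239 and 179.9 with #4. All shMed4 libraries were above NTC, with a fold of 1.39 (SE 0.12).

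Slc44a2, a choline transporter-like protein of the plasma membrane and mitochondria, had 8 peaks called lower and 7 called higher in its window. Of the 8 peaks nearest to Slc44a2 itself, 1 was called lower and 0 higher. The lowest fold was inside the gene at peak 21 (chromosome 9, 21351032 to 21351533), with 171, 205 and 181 in NTC, 131, 92.5 and 74.8 with #1, and 151, 159 and 139 with #4. The groups were apart in the order NTC, #4, #1, and the mean fold was -0.62 (SE 0.13). The highest was at peak 33 (chromosome 9, 21417756 to 21418257), nearest to Qtrt1 and 63.0 kb beyond the gene. It stood at 157, 142 and 120.3 in NTC, 427, 411 and 474 with #1, and 145, 142 and 138 with #4. Only the #1 libraries were high, and #4 overlapped NTC.

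The edge of the windows fell within chromatin of both kinds. Just inside 100 kb, the outermost peak below Slc7a5 (98.3 kb) had a fold of 1.37, and the next one outside (103.9 kb) -0.01. The outermost peaks below Slc38a1 had 0.64 inside (99.3 kb) and -0.14 outside (101.5 kb). Below Slc44a2 they had -0.23 inside (99.0 kb) and 0.54 outside (100.1 kb). At other edges the rise went on outside or stood only there: below Slc38a2 the folds were 1.70 inside and 1.35 outside, and below Slc38a4 0.15 and 2.32. The first peak outside the Slc13a1 window had a fold of 1.72 below the gene and 0.74 above it.

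The hairpins were compared directly with limma, with p adjusted over all 146729 peaks, of which 41.6% were called (20.4% higher and 21.2% lower with #4 than with #1). Of the 243 members, 41 were higher with #4, 47 were lower and 155 were not called, that is 16.9% and 19.3%, near the shares of all peaks. The median was 0.01, against 0.00 over all peaks. The direction differed between genes. Around Slc44a1, 18 of 33 peaks were lower with #4 and 2 were higher (median -0.21), and around Slc7a5 16 of 49 were lower and 2 higher (-0.13). Of the peaks nearest to the gene itself, 17 of 30 were lower with #4 for Slc44a1 and 4 of 11 for Slc7a5. Around Slc13a1, 5 of 7 were higher with #4 and none was lower (0.97), and around Slc38a4 12 of 32 were higher and 3 lower (0.26). The counts higher and lower were 8 and 2 of 41 for Slc38a1, 8 and 2 of 30 for Slc38a2, 4 and 5 of 39 for Slc44a2, and 4 and 2 of 34 for Slc1a5.

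Peaks around those windows leaned the same way at some of the genes. Within 2 Mb, outside the window, the median of #4 against #1 was 0.27 near Slc13a1, 0.15 near Slc38a4, -0.11 near Slc44a1 and -0.02 near Slc7a5. Chromosome medians were 0.03, 0.11, -0.03 and -0.05 in that order. Whether the windows differ from their surroundings was not tested.

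At single peaks, the choline transporter Slc44a1 was lower with #4 than with #1 by limma at peak 22 (log2 fold -0.55, SE 0.12, adjusted p 2.0e-04) and at peak 29 (-0.85, SE 0.09, adjusted p 1.5e-09), with all 3 #4 libraries below all 3 #1 libraries at each. Its start, peak 12, also had a call (-0.25, SE 0.08, adjusted p 0.00881), which rested on single libraries: the fold was -0.11 without #4 replicate 1 and -0.19 without #1 replicate 3, neither called. Slc13a1 was higher with #4 at peak 1 (1.07, SE 0.11, adjusted p 1.1e-09) and peak 7 (1.07, SE 0.15, adjusted p 1.9e-07), in 3 of 3 libraries each. Slc38a1 was higher with #4 at peak 21 (0.28, SE 0.08, adjusted p 0.00389), yet lower at peak 25 (-0.38, SE 0.08, adjusted p 2.8e-04). At the distant peak 9 the fold was 0.87 (SE 0.17, adjusted p 5.4e-05). In each gene, 1 named peak was picked for the largest difference between the hairpins. Here these are Slc38a1 peak 9, Slc44a1 peak 29 and 1 of the Slc13a1 peaks 1 and 7, which had equal folds as printed. Among the genes below they are Slc44a2 peak 33, Slc38a4 peak 13, Slc38a2 peak 28, Slc7a5 peak 44 and Slc1a5 peak 6. The calls of all these peaks are partly a result of that choice.

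Among the other genes, the furthest difference between the hairpins was at Slc44a2 peak 33 (log2 fold of #4 against #1 -1.62, SE 0.11, adjusted p 3.5e-14), where #4 was level with NTC. Slc44a2 peak 21, inside the gene, was higher with #4 (0.62, SE 0.15, adjusted p 0.00125). Slc38a4 peak 13 (chromosome 15, 97009244 to 97009745), inside the gene, had 226, 292 and 239 normalised reads in NTC, 217, 208 and 229 with #1, and 460.2, 404 and 425 with #4. The #4 libraries were all above the others, with a fold against #1 of 0.98 (SE 0.10, adjusted p 3.1e-10). Of the 7 peaks inside Slc38a4, 5 were higher with #4. Slc38a2 peak 28 was likewise higher with #4 (0.91, SE 0.21, adjusted p 5.1e-04).

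Slc7a5 was lower with #4 than with #1 at peak 44 (chromosome 8, 121976355 to 121976856), nearest to Banp, which had 123, 105 and 90.8 normalised reads in NTC, 233, 229 and 222 with #1, and 112, 125 and 138 with #4. Only #1 was high there, and the fold of #4 against #1 was -0.86 (SE 0.14, adjusted p 2.7e-06). The Slc7a5 end peak 25 was lower by a smaller amount (-0.18, SE 0.06, adjusted p 0.00941), and was not called without #4 replicate 1 (-0.13). Slc1a5 peak 6 (chromosome 7, 16715992 to 16716493), nearest to Ceacam9, had 83.9, 95.5 and 86.7 in NTC, 98.4, 94.1 and 84.7 with #1, and 129, 138 and 155 with #4. Only #4 was high, with a fold against #1 of 0.60 (SE 0.16, adjusted p 0.00196). For the leading peaks of Slc38a4 (peak 28, -0.11, SE 0.11) and Slc7a5 (peak 30, -0.27, SE 0.13) the difference did not pass the threshold, which does not show that the hairpins act alike there.

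**Figure D5:**
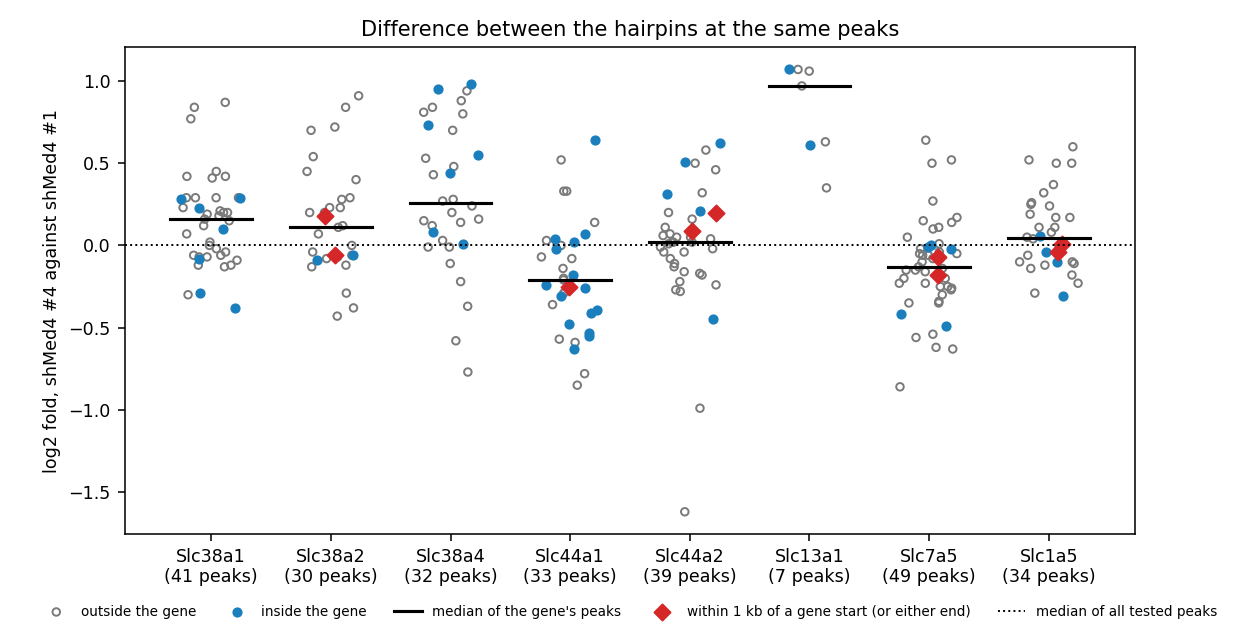
Each point is a peak in the window of a gene (horizontal axis); the vertical axis is the log2 fold of shMed4 #4 against shMed4 #1, with symbols as in the plot of folds against NTC and black bars at the gene medians. The medians are 0.97 for Slc13a1 and -0.21 for Slc44a1, on either side of the median of all tested peaks, 0.00.

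Genes of the same pathways were read at 1 peak each, at the gene start or end. Over 5 lists together, 10 of 109 such peaks (9.17%) were called higher than NTC by the mean of the hairpins and 58 (53.2%) lower, with a median of -0.13. Start or end peaks of all genes leaned the same way, with 10.7% higher, 44.9% lower and a median of -0.11, and the counts of each list below are to be read beside these shares. Called with each hairpin on its own were 3 higher and 36 lower, beside 754 and 2940 of the 11064 start or end peaks of all genes. For choline transport and phosphatidylcholine synthesis, 17 of 28 genes had such a peak; 1 was higher and 11 were lower (median -0.15). Etnk2, an ethanolamine kinase, was higher at 107 ± 11.5 normalised reads in NTC, 117 ± 17.7 with #1 and 184 ± 11.6 with #4 (SD, n = 3). It was called with #4 and not with #1, and #4 was above #1 by 0.66 (SE 0.14, adjusted p 2.8e-04 by limma). Flvcr2, a choline carrier of the blood-brain barrier, was lower (log2 fold -0.41, SE 0.06), and Chpt1, the cholinephosphotransferase, likewise (-0.27, SE 0.05). Pcyt1a, the rate-limiting enzyme of the pathway, had a fold of -0.16 (SE 0.04), and Chka, the choline kinase, was not called (0.09, SE 0.05).

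In the sulfate list 14 of 21 genes had a start or end peak, with 0 higher and 7 lower (median -0.13). Papss1, which makes the sulfate donor PAPS, had 2881 ± 113, 2399 ± 253 and 2323 ± 119 normalised reads, and Arsb, a sulfatase, 1332 ± 55.4, 1208 ± 51.6 and 1027 ± 82.0 (SD, n = 3). Among other amino acid transporters, 20 of 36 had such a peak, with 3 higher and 13 lower (median -0.14). Slc43a1, a leucine transporter, was the furthest from NTC, at 18.6 ± 4.39, 31.8 ± 2.03 and 109 ± 2.50, and Slc36a4 was higher with #1 (0.56, SE 0.10) but not called with #4 (0.05, SE 0.10), a mean of 0.30 (SE 0.08). Slc7a6 (-0.43, SE 0.05), Slc43a2 (-0.40, SE 0.05) and Slc3a2, the partner chain of Slc7a5 (-0.33, SE 0.05), were lower.

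For the ATF4 amino acid response, 29 of 32 genes had such a peak, with 4 higher and 13 lower (median -0.10). Cth, an enzyme of cysteine synthesis, was higher with #4 (0.33, SE 0.06) and not called with #1 (0.11, SE 0.06), a mean of 0.22 (SE 0.05). Atf3 was higher with #1 (0.34, SE 0.06) and not called with #4 (0.02, SE 0.06), a mean of 0.18 (SE 0.05). By limma, #4 differed from #1 at Slc36a4 (-0.52, adjusted p 4.0e-05), Cth (0.22, adjusted p 0.00256) and Atf3 (-0.32, adjusted p 4.0e-05). The same limma comparison was called at Cebpb (0.39, adjusted p 1.0e-06), Flvcr2 (0.44, adjusted p 2.4e-06) and Slc43a1 (1.74, adjusted p 1.1e-06). Of the other genes named from the lists, Chpt1, Arsb, Slc7a6 and Sesn1 were called lower with #4 than with #1, and Bcat1 and Gpt higher. Cebpb was lower (log2 fold -0.59, SE 0.05) and Vldlr likewise (-0.46, SE 0.06), while Asns, asparagine synthetase, was not called (-0.08, SE 0.06). For glutamine and leucine use and mTORC1 sensing, 29 of 33 had such a peak, with 2 higher and 14 lower (median -0.12). Bcat1, the branched-chain aminotransferase, rose from 1096 ± 56.6 to 1429 ± 130.0 with #1 and 1664 ± 69.0 with #4 (SD, n = 3), and Gpt, alanine aminotransferase, was higher by 0.47 (SE 0.09). Tsc1, an inhibitor of mTORC1, was lower (log2 fold -0.41, SE 0.05). The peak of Sesn1, a sestrin, is shared with Cep57l1 and was lower (log2 fold -0.33, SE 0.05). Between the hairpins, 12 of the 109 peaks were higher with #4 and 20 lower by limma, beside 14.2% and 15.9% over all genes. With #1 alone 8 were higher and 42 lower than NTC, beside 10.2% and 36.5% over all genes. With #4 alone the counts were 7 and 54, beside 10.4% and 43.5%.

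The peaks whose values over the 9 libraries most resembled those of Slc44a1 peak 22 were sought among 128217 peaks outside the windows, by the root mean square difference of their centred log2 values. These candidates had a mean of at least 50 and a protein-coding gene within 100 kb. The 5 nearest all lay inside genes, a share that was not compared with that of all candidates. They were in Rbms3 (0.18), Dip2a (0.20), Sash1 (0.31), Shank2 (0.33) and Ust (0.33). In Rbms3 the peak (chromosome 9, 117153851 to 117154352) had 31.5 ± 2.48 normalised reads in NTC, 559 ± 48.9 with #1 and 420.0 ± 31.8 with #4, and in Dip2a (chromosome 10, 76314273 to 76314774) 14.4 ± 5.49, 233 ± 8.08 and 157 ± 15.4 (SD, n = 3).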

How the data were processed

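ATAC-seq libraries of D2A1-d cells (3 each of NTC, shMed4 #1 and shMed4 #4; groups from the sample titles) were deposited as 1 table of normalised signal per peak, that is, read counts divided by a scaling factor per library, which the authors made with DESeq2, per the file headers and name. Subread, featureCounts, MACS2, BWA and Trim Galore, with mm10 (GRCm38), are named in the submitters' processing notes, without order or versions. Whether reads were shifted for the transposase cut, how duplicates were treated, and whether libraries were pooled for peak calling are points not given in the sources used here, nor is whether coordinates count from 0; coordinates are printed as deposited. All 146734 peaks are 501 bp wide by their coordinates. Whether the scaling factors remove a change that affects most peaks cannot be told from the table, so folds are relative to the other peaks. The value of 1 read in each library was found from the spacing of the values, and all values were whole multiples of it within 0.0001 of a read, which gave the depths.

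Values were analysed as log2(value + 1) with limma 3.58.1 (lmFit, eBayes with trend; R 4.3.3), 1 fit over the 9 libraries, for the 146729 peaks whose mean reached 10. Contrasts were the mean of both hairpins, and each hairpin, against NTC, and #4 against #1, with Benjamini-Hochberg adjustment over all peaks. The script was tested on simulated data. Gene positions and promoters came from RefSeq (GRCm38.p6). A gene start peak is the peak with the highest mean within 1 kb of a listed start, or of either end for genes without one; 17274 of 21631 protein-coding genes had a listed start, and 12122 had a peak. Peaks named for a member, among those with a mean of at least 50, are its start or end peak, its highest and lowest fold against NTC, and its largest difference between the hairpins; other peaks are given to describe runs and clusters and were chosen after their values were seen. In each list the 2 highest and 2 lowest called folds are named, and Chka, Pcyt1a, Slc3a2 and Asns were added after their values were seen. The members and lists were chosen with earlier results of these data known. Some items that these rules name are not reported here.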

Additional observations from a re-analysis of the deposited data

Results flagged for a closer look

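The 14 peaks named for a member whose difference between the hairpins was called by limma (adjusted p under 0.05 over all peaks) are listed with the log2 fold of shMed4 #4 against shMed4 #1; positive values are higher with #4. Around Slc38a1 they were peak 21 (0.28) and peak 9 (0.87), and around Slc38a2 peak 28 (0.91). Slc38a4 had peak 13 (0.98). Slc44a1 had peak 12 at the start (-0.25), peak 22 (-0.55) and peak 29 (-0.85). Slc44a2 had peak 33 (-1.62) and peak 21 (0.62). At Slc13a1 both peak 1 and peak 7 differed by 1.07. Slc7a5 had the end peak 25 (-0.18) and peak 44 (-0.86), and Slc1a5 had peak 6 (0.60). Over all peaks 41.6% were called in this comparison. The list cannot be read beside that share, because 1 peak of each gene was named for its large difference between the hairpins.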

How the results depend on the processing

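No direction of a called value turned under any alternative run. The fits with edgeR and DESeq2 on recovered reads were not run. A pseudocount of 10, no filter on low values, a mean of at least 50 and scaling to equal totals moved no count of member peaks by over 1.5 times. Of 102 members higher and 20 lower than NTC, 63 and 9 were nearest to the member gene, where fewer peaks are counted (59 of 99 and 14 of 26 with #1; 12 of 22 lower with #4). Against #1, 29 of the 47 lower with #4 were nearest. Within 50 kb the lower counts were 12 (both), 17 (#1) and 14 (#4), and #4 against #1 gave 25 higher and 31 lower. An adjusted p under 0.01 left 13 lower for both and 13 for #4. Centring on peaks at gene ends gave 12 members lower (11 with #4), and centring on peaks away from them 44 (41 with #1, 42 with #4). That second centring moved the median of all peaks by -0.10; of all called peaks 51.6% were higher as deposited, 64.9% centred on gene ends and 36.9% centred away from them (52.8, 61.4 and 40.4% with #1; 51.9, 68.5 and 36.6% with #4). 

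Leaving out each library in turn, members higher and lower numbered 89 to 101 and 13 to 21 (both; 13 without NTC replicate 2), 90 to 101 and 21 to 27 (#1), 90 to 102 and 15 to 22 (#4), and 39 to 47 and 37 to 47 (#4 against #1). The labels do not say whether a replicate number is shared between groups. Deviations of same-numbered libraries correlated by -0.01 to 0.07, and those of different-numbered libraries by -0.1 to 0.04. Such small values cannot settle whether the numbers pair the samples. With the replicate number as a block, 102 members were higher and 20 lower than NTC, and 43 were higher and 47 lower with #4 than with #1, and no count moved by over 1.5 times.

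The list counts moved with the centring. On gene ends, higher and lower were 2 and 4 (choline), 1 and 4 (sulfate), 7 lower (other amino acid transporters), 7 and 8 (ATF4) and 4 and 6 (glutamine, leucine and mTORC1), and over the 5 lists 18 and 29 (both), 15 and 25 (#1), 14 and 24 (#4) and 11 lower (#4 against #1). Away from gene ends, the lower counts were 12 (sulfate), 20 (ATF4, with 0 higher) and 22 (glutamine), with 5 higher over the 5 lists and 67 lower with #1. An adjusted p under 0.01 left 7 lower (choline), 4 (sulfate), 8 (other amino acid transporters), 2 higher (ATF4), and 7 higher and 10 lower for #4 against #1. Leaving out 1 library gave 1 to 2 higher and 8 to 11 lower (choline), 0 to 1 and 4 to 8 (sulfate), 2 to 4 and 8 to 14 (other amino acid transporters), 2 to 5 and 10 to 15 (ATF4) and 2 and 11 to 18 (glutamine). Over the 5 lists the ranges were 8 to 12 and 42 to 63 (both), 5 to 10 and 28 to 49 (#1), 6 to 10 and 41 to 66 (#4), and 7 to 17 and 11 to 26 (#4 against #1; 7 higher without #1 replicate 2, 11 lower without #1 replicate 3 or #4 replicate 1). The cause of these moves was not tested.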
